A study of Homo sapiens with 4 samples.

Results

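The arrays described here compared U87TR-Da cells with DACH1 induced and with DACH1 silenced in medium labelled serum-free. They were the 2 of the study's 4 arrays whose sample titles name these states and this medium, 1 array a state. U87TR-Da derives from U87MG, an established human glioblastoma line, and was built so that doxycycline switches on DACH1. The silenced culture is labelled as lacking DACH1 and the induced culture as carrying it, and both are described as grown without serum, in Neurobasal medium that carried the supplements N-2 and B-27 besides EGF and bFGF. The other 2 arrays held the same states in DMEM with 10% FBS. The treatment label is the same for all 4 samples, 1 µg/mL doxycycline for 72 h, and so does not state how DACH1 was kept silent. Effects of doxycycline and of DACH1 cannot be told apart with these arrays. Whether the line is a clone is not stated. No culture was repeated, so that each value below compares 2 arrays, has no replicate check and no test, and "higher" or "lower" describes the array of induced cells against that of silenced cells.

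Each array gave a MAS5 signal, a background-corrected brightness on a linear scale, for 54613 probe sets. Probe sets with 1 annotated gene covered 19775 genes, each represented by its brightest probe set. A floor of 10.9, the 40th percentile over the 4 arrays, was applied before the log2 difference, induced minus silenced, was taken. A gene was compared where the brighter of its 2 arrays reached 17.2, the median of all signals, which held for 12659 genes. The account below rests on the 7294 of them whose brighter array read 100 or more, since weaker signals scattered far more widely.

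The media labels were set beside gene lists that serum is known to act on. All 26 bright genes of G2 and mitosis read higher on both arrays labelled serum-free than on both arrays labelled serum, with a median log2 difference of 1.82 between the media. The same held for 25 of 27 genes of DNA replication and for 13 of 14 contractile genes, while 11 of 15 immediate early genes read lower on both. Of 16 genes of cholesterol synthesis 3 read higher and 6 lower on both, with a median of -0.08. Serum is known to induce immediate early genes and also contractile and proliferation genes. By serum alone, the first of these lists ran with the labels and the contractile and cell cycle lists ran against them. The medium labelled serum-free is described as carrying EGF and bFGF, and their part in these lists was not tested. Whether the media labels were exchanged cannot be told from these lists, and for that reason each medium is given only as a label. Of the markers of cell types, 0 of 10 microglial and 0 of 9 endothelial genes reached 100 on either array of the pair. Of 12 astrocyte markers 4 reached 100, among them GJA1, the gap junction protein connexin 43, at 4692.0 in silenced and 3771.0 in induced cells and CLU, clusterin, at 814.2 and 655.0, while GFAP, AQP4 and S100B lay under the floor on both arrays. Of 10 neural stem markers with a probe set 2 reached 100, VIM, vimentin, at 9277.8 and 7626.4 and PAX6 at 247.9 and 231.4, while SOX2 read 10.3 and 10.4. Of 12 fibroblast and pericyte markers 7 reached 100, among them COL1A1 at 7866.9 and 7105.1, while COL3A1, RGS5 and THY1 read 15.4 and 4.1, 15.8 and 18.6, and 23.6 and 13.5. The signals of the 12 fibroblast and pericyte genes summed to 24358.8 and 20443.8, and those of the 12 astrocyte markers to 6622.6 and 5304.7. The part of such markers in the results below was not tested. In bulk RNA, fewer cells of a type and less RNA per cell cannot be told apart.

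DACH1 belongs to the Dachshund family of nuclear proteins, which bind DNA through a domain shared with the SKI and SNO oncoproteins and act mostly as repressors of transcription, together with corepressors such as SIN3A and the histone deacetylase HDAC3. During development it works beside EYA proteins and sine oculis homeobox factors in the retinal determination network. In tumours it has been tied to lower growth factor and cytokine output, including that of FGF2 in glioma. The induction of DACH1 in U87 cells asks what this repressor changes in a glioblastoma line, and the medium labelled serum-free is of the kind used to grow glioma stem-like cells.

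DACH1 itself was the largest difference of the pair. Its brightest probe set read 32.5 in silenced and 875.1 in induced cells, a 26.9-fold higher signal and a log2 difference of 4.75. The other probe sets did not show this. The next read 12.1 and 2.9, and the dimmest 0.4 and 6.7, where both values lie under the floor. Which part of the transcript each of them reads was not analysed here. In medium labelled serum the brightest probe set went from 126.0 to 4431, so that the induced level was lower in the present pair while the fold was of a like order (26.9 and 35.2). Among the partners and corepressors, EYA3 read 186.9 and 213.0, SIN3A 101.9 and 106.6, HDAC3 323.6 and 310.0, and PAX6 247.9 and 231.4. SIX5, a sine oculis homeobox factor, was lower, at 134.0 in silenced and 77.8 in induced cells (1.72-fold), and the SKI relative SKIL read 147.2 and 193.5. The median of the 8 bright members of this network was 0.13 on the log2 scale, and 6 of the 14 measured genes stayed under 100.

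Besides DACH1 the pair showed few large differences. Of the 7294 bright genes, 11 were at least 2-fold different (0.151%), of which 2 were higher (0.0274%), DACH1 and IL1RN, and 9 lower (0.123%). At 1.5-fold, 65 genes were higher (0.891%) and 73 lower (1.00%), 138 in all or 1.89%. The median log2 difference of the bright genes was 0.02, and their robust SD, scaled from the median absolute deviation, was 0.18. The pair labelled serum was wider: 1103 of its 7349 bright genes (15.0%) passed 1.5-fold, 423 (5.76%) passed 2-fold, and the robust SD was 0.34. The difference in width between the pairs was not tested, since each rests on 2 arrays.

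**Figure D1:**
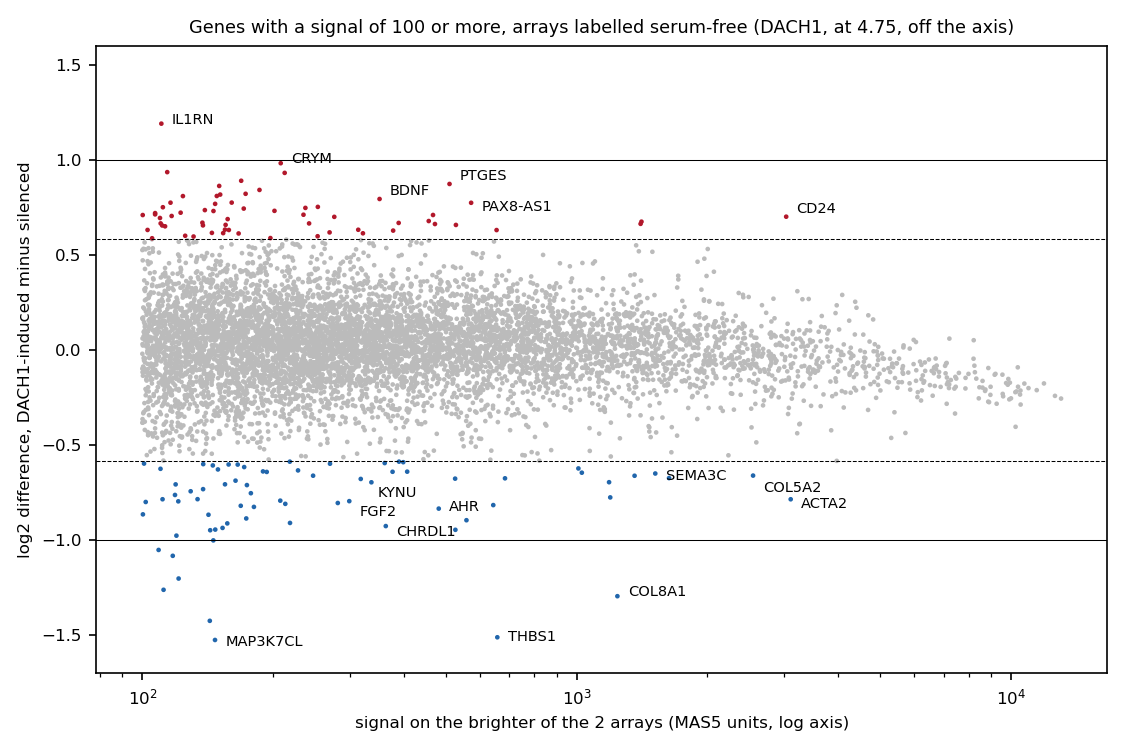
Log2 difference of every bright gene, induced minus silenced, against the signal of its brighter array on a log axis. Each point is a gene, with a solid line at 2-fold, a dashed line at 1.5-fold, red for genes at least 1.5-fold higher and blue for genes at least 1.5-fold lower; DACH1, at 4.75, lies off the axis. The brightest genes, at the right edge, sit under 0.

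The scatter narrowed with brightness, and the centre shifted. Genes between 17.2 and 50 had a robust SD of 0.66 and 40.2% of them passed 1.5-fold, against 0.22 and 3.54% between 100 and 200 and 0.13 and 0.569% from 2000 up. The median was 0.04 between 100 and 500 but -0.07 for the 527 genes from 2000 up, of which 29.0% lay above 0 and 71.0% below. The 10 brightest genes, among them ACTB (13055.2 and 10935.3), LDHA (10535.1 and 8633.8) and B2M (10392.2 and 9088.4), were all lower, by 0.18 to 0.29 on the log2 scale. The trimmed means of both arrays were nearly equal, at 99.63 and 99.65, and the medians were 19.3 and 17.1. Small negative differences of very bright genes therefore need to be read beside this shift. At the thresholds, the bright gene nearest inside a signal of 100 was CTBS (100 and 98.6) and the nearest outside was KIFC2 (89.4 and 99.9). SYTL3 (145.7 and 72.8) lay just inside 2-fold lower and ZNF335 (119.8 and 60.9) just outside. CRYM (105.5 and 208.3) was the gene nearest to 2-fold higher from outside. At 1.5-fold, TLE4 (390.0 and 259.6) was just inside and ALCAM (3973.1 and 2652.4) just outside on the lower side, and ZNF580 (70.1 and 105.3) and MROH1 (70.3 and 105.2) on the higher side.

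Matrix and contractile genes stood among the lower genes with the highest signals. THBS1 encodes thrombospondin 1, a secreted matrix protein known to inhibit angiogenesis and to activate latent TGF-beta. It read 656.9 in silenced and 230.6 in induced cells, 2.85-fold lower, and its 3 other probe sets above 50 read 626.0 and 177.7, 384.3 and 126.7, and 69.8 and 23.3. All 4 placed the induced array lower, by 1.51 to 1.82 on the log2 scale. COL8A1, a short-chain collagen of vessel walls, read 1241.7 and 506.3, 2.45-fold lower, and 164.9 and 73.5 by another probe set. ACTA2, smooth muscle alpha-actin, read 3112.6 and 1806.5, 1.72-fold lower, with no other probe set above the floor. COL5A2, a chain of fibrillar collagen V, read 2549.6 and 1613.1 (1.58-fold), COL13A1, a membrane collagen, 155.0 and 95.0 (1.63-fold), and LOXL3, a lysyl oxidase that crosslinks collagen, 1632.9 and 1023.8 (1.59-fold). The urokinase gene PLAU, which starts the plasmin cascade, read 1028.3 and 657.5, with 945.8 and 580.9 by its other probe set.

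Other lower genes encode secreted signals or receptors, which are described singly and were not tested as a group. FGF2, basic fibroblast growth factor, read 299.6 and 172.7 by 1 probe set and 304.4 and 172.8 by the other, 1.73-fold and 1.76-fold lower. FST, follistatin, which binds activins, was lower in all 3 of its probe sets, with 173.5 and 93.9 in the brightest (1.85-fold) and 118.4 and 49.9 in the next. CHRDL1, a BMP antagonist of the chordin family, read 363.6 and 191.4 (1.90-fold), and CRIM1, a membrane protein that binds BMPs, was lower in its 3 probe sets, with 1009.7 and 655.7 in the brightest. EDN1, the precursor of the vasoconstrictor endothelin 1, read 147.2 and 76.5 (1.92-fold) and 133.0 and 59.1. VEGFC, a lymphatic growth factor, read 281.9 and 161.4 (1.75-fold). SEMA3C, a secreted semaphorin, read 1518.0 and 967.7 (1.57-fold) by its brighter probe set and 378.6 and 148.2 by the other, so that its fold depended on the probe set. IGFBP1, an IGF-binding protein, read 213.4 and 121.8 (1.75-fold). Of receptors, IL7R, the interleukin 7 receptor, read 218.8 and 116.5 (1.88-fold) and 178.9 and 107.3. AGTR1, the angiotensin II receptor, read 143.3 and 74.3 (1.93-fold), but 48.1 and 41.5 by its other, dimmer probe set.

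Among regulators and enzymes, the lowest bright gene of all was MAP3K7CL, a small gene named for its likeness to the kinase TAK1, at 147.0 and 51.1 (2.88-fold lower) on its only probe set. RARB, the retinoic acid receptor beta and itself a retinoid target, read 143.0 and 53.3 (2.68-fold), and 78.7 and 39.4 by another probe set. DIO2, the deiodinase that activates thyroid hormone, read 121.2 and 52.7 (2.30-fold). AHR, the aryl hydrocarbon receptor, read 481.5 and 270.1 (1.78-fold), and KYNU, kynureninase of tryptophan breakdown, 407.3 and 261.4 (1.56-fold). SLC7A11, the cystine transporter subunit, was lower in its 2 bright probe sets, at 376.9 and 241.8 and at 313.9 and 150.7. CBLB, a ubiquitin ligase that limits receptor signalling, read 557.7 and 299.9 (1.86-fold), though its other probe set above 50 read 71.8 and 60.0. The phosphatase DUSP18 (111.9 and 46.7), the keratin-associated KRTAP1-5 (109.0 and 52.6), ADAT3 of a tRNA deaminase (117.5 and 55.5) and SYTL3 (145.7 and 72.8) completed the 9 genes at 2-fold. The other, dimmer probe set of ADAT3 read 26.3 and 25.5. Those of SYTL3, near the floor, read 10.1 and 14.3, 12.6 and 22.1, and 14.3 and 1.0. Of the 11 bright genes past 2-fold in either direction, 8 had their brighter signal between 100 and 200.

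The higher genes had smaller folds, and besides DACH1 the 2-fold mark was passed by IL1RN alone. IL1RN, the secreted antagonist of the interleukin 1 receptor, read 48.5 and 110.6 (2.28-fold higher), and 42.5 and 56.6 and 43.4 and 63.9 by its other probe sets above the floor, so that 1 of 3 passed 1.5-fold. IL36RN, the antagonist of the interleukin 36 receptor, read 70.8 and 124.0 (1.75-fold). PTGES, the terminal synthase of prostaglandin E2, read 278.5 and 509.8 (1.83-fold) and 214.4 and 263.2. BDNF, brain-derived neurotrophic factor, read 203.0 and 351.8 (1.73-fold) and 162.9 and 222.8. CD24, a heavily glycosylated surface protein, was the brightest of the higher genes: its 6 probe sets were all higher, from 361.6 and 708.1 (1.96-fold) to 2024.6 and 2927.8 (1.45-fold). GPNMB, a transmembrane glycoprotein of melanosomes and glioblastoma cells, read 936.9 and 1371.5 (1.46-fold) and 101.2 and 184.4 (log2 0.87). ITGB3, the integrin beta 3 chain, read 334.5 and 527.4 (1.58-fold), and PAX8-AS1, a noncoding RNA gene, 334.5 and 571.7 (1.71-fold).

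The other highest genes have varied functions. CRYM, a thyroid hormone-binding protein, read 105.5 and 208.3 (1.97-fold), and KIF5A, a kinesin heavy chain of axons, 111.6 and 212.7 (1.91-fold), although its 2 dimmer probe sets read lower on the induced array. DCLK1, a microtubule-associated kinase, read 82.7 and 150.3 (1.82-fold), and ING4, a reader of histone methylation with tumour suppressor functions, 91.2 and 168.9 (1.85-fold) and 92.2 and 115.9. TRPS1, a GATA-type repressor, read 84.7 and 148.4 (1.75-fold), but 87.7 and 79.5, 59.2 and 54.0, and 47.2 and 48.8 by its other probe sets, which did not share the difference. CDK14, a cyclin-dependent kinase, read 97.9 and 172.9, and the log2 mean over its 3 probe sets was -0.044. STRIP2 (167.4 and 253.3), NUP62 of the nuclear pore (230.1 and 339.1), NIP7 of ribosome assembly (119.2 and 169.6) and DMXL1 (150.6 and 253.6) were higher by each of their probe sets that reached 50.

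Probe sets that were not used to pick the genes gave a check within the arrays. Of the 73 genes at least 1.5-fold lower, 20 had another probe set at 100 or more, of which 19 lay below 0 and 13 also passed 1.5-fold lower, with a median of -0.72. Of the 65 genes at least 1.5-fold higher, 13 had one, of which 12 lay above 0 but 1 passed 1.5-fold, with a median of 0.30. Among the bright genes in neither group, 2890 had such a second probe set and its median was 0.01. When second probe sets from a signal of 50 were taken, 27 of 32 for the lower genes lay below 0 and 16 passed 1.5-fold lower, and 20 of 24 for the higher genes lay above 0 and 6 passed 1.5-fold higher. Most second probe sets thus shared the sign in both directions, and the difference in shared size between the directions was smaller with the dimmer ones included. These probe sets shared the RNA and the arrays with the first ones and are not replicates of the cultures.

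**Figure D2:**
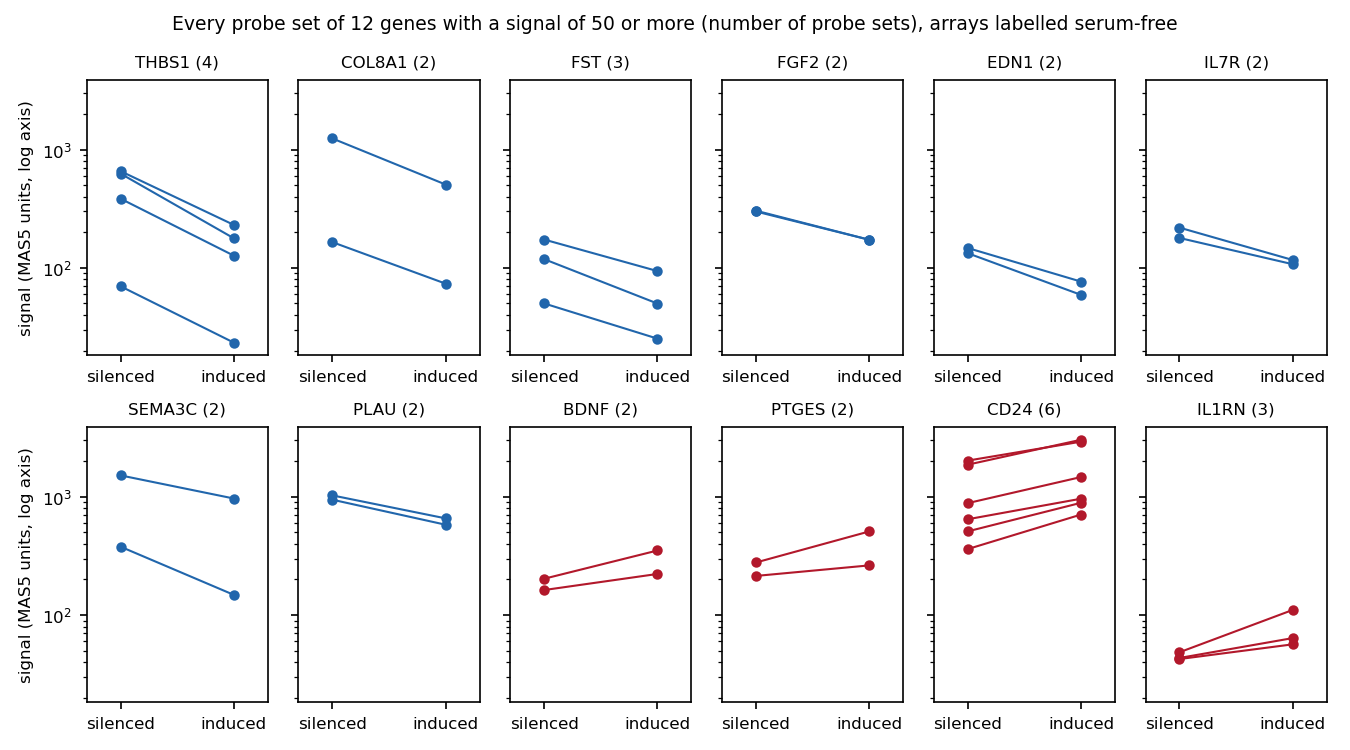
Signal in silenced and in induced cells, on a log axis, for every probe set of 12 genes that reached 50 on either array; each line is a probe set and the number in each title counts them. The probe sets of THBS1, COL8A1, FST, FGF2, EDN1, IL7R, SEMA3C and PLAU all slope down and those of BDNF, PTGES, CD24 and IL1RN all slope up, with unequal slopes for SEMA3C and IL1RN.

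The sequences around the start sites of 5 of these genes are given, for 4 of the lower genes described above and for IL1RN, which besides DACH1 was the bright gene past 2-fold on the higher side. They come from RefSeq on GRCh38.p14, run from 250 bases before to 50 after the annotated start, and are printed 5′ to 3′ on the gene's strand: THBS1 (chr15:39580829-39581128, plus strand), ACTA2 (chr10:88991288-88991587, minus strand), FGF2 (chr4:122826581-122826880, plus strand), FST (chr5:53480379-53480678, plus strand) and IL1RN (chr2:113117721-113118020, plus strand). Capitals mark matches, on either strand, to the AP-1 site TGANTCA, to the forkhead core TGTTTAC, chosen since DACH1 has been reported to bind forkhead-like sites, or to the CArG box bound by serum response factor.
THBS1: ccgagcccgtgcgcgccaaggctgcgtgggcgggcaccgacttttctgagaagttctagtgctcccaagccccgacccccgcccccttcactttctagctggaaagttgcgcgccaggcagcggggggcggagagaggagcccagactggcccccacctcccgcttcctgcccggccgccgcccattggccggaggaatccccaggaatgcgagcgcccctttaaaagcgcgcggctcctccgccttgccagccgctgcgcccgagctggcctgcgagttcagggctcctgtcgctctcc
ACTA2: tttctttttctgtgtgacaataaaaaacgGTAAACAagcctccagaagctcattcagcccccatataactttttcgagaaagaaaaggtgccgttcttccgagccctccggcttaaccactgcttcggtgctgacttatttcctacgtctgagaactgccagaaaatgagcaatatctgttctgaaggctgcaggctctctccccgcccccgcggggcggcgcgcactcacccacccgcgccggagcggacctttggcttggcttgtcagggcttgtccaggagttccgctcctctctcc
FGF2: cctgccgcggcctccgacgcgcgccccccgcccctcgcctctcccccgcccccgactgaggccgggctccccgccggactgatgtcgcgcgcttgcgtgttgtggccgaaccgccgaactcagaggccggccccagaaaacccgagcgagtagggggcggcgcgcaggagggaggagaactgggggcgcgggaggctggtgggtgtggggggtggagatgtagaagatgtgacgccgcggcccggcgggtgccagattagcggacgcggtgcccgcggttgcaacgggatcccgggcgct
FST: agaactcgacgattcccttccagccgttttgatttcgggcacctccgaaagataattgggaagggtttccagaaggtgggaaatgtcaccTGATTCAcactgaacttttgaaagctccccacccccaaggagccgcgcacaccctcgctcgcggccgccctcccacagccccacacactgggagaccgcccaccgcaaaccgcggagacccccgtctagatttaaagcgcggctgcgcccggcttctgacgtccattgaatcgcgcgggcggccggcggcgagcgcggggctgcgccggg
IL1RN: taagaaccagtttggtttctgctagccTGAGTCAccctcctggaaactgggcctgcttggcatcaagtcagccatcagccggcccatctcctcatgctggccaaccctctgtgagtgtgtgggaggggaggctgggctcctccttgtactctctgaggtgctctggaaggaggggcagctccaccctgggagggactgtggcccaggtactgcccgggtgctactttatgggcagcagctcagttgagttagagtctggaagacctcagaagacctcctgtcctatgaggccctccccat

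FST and IL1RN each held an AP-1 match, at -160 and -223 from the start site, ACTA2 held a forkhead match at -221, and THBS1 and FGF2 held none of the 3 motifs in this window. Of 59 promoters found for the 73 lower genes, 5 (8.47%) held the AP-1 site, 3 (5.08%) the forkhead core and 1 (1.69%) the CArG box. Of 50 found for the 65 higher genes, the numbers were 3 (6.00%), 4 (8%) and 1 (2%). Over all 27305 promoters of the table the shares were 7.76%, 3.41% and 1.29%, and over the 6165 of bright genes 4.40%, 2.37% and 1.14%. A match describes letters in this window and does not show that a factor binds there. The window surrounds 1 annotated start per gene, which need not be the start used in these cells. Other start sites of these genes were not examined, so that a motif absent here may lie near another start.

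The lower matrix genes were followed through lists of the matrix and of the contractile machinery, of which THBS1, COL8A1 and ACTA2 are members. The counts that follow stand beside 1.00% of all bright genes at least 1.5-fold lower and 0.891% at least 1.5-fold higher. Of 13 bright collagen chains, 3 were at least 1.5-fold lower and 0 higher, 11 lay below 0, and the median was -0.17; COL1A2, a chain of fibrillar collagen I, read 8974.8 and 7620.0. Of 15 bright genes of collagen folding and crosslinking, 1 passed 1.5-fold lower and 13 lay below 0, with a median of -0.24, the furthest from 0 in size of the matrix lists. PLOD2, a lysyl hydroxylase, read 5718.7 and 4225.6, SERPINH1, the collagen chaperone HSP47, 3858.3 and 2878.9, and P3H1, a prolyl hydroxylase, 596.2 and 431.7, all short of 1.5-fold. Of 12 matricellular and other matrix genes, 1 passed 1.5-fold lower, THBS1, and the median was -0.15, with VCAN, the proteoglycan versican, at 820.6 and 548.2, CCN2, a target of TGF-beta and YAP, at 365.1 and 252.7, and FN1, fibronectin, at 7440.2 and 5901.4. Of 14 bright contractile genes 13 lay below 0 and 1 passed 1.5-fold, ACTA2; CNN1, calponin, read 874.0 and 606.7, and the median was -0.18. Of 12 integrins and laminins 1 passed 1.5-fold, ITGB3 on the higher side, while ITGB8 read 232.2 and 157.8 (median -0.16). Fibroblast and pericyte markers, some of which are the same genes, had a median of -0.22 over 7 bright members with 6 below 0. All bright genes had a median of 0.02 with 55.3% above 0, and those from 2000 up, which include COL1A1, COL1A2, COL5A1 and COL6A3, a median of -0.07. With quantile normalization of the pair, which gives both arrays the same distribution, the medians were -0.13 for collagen chains, -0.17 for collagen folding and -0.15 for contractile genes.

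In the lists of secreted signals single members passed 1.5-fold, beside the same 1.00% lower and 0.891% higher over all bright genes. By sign, 55.3% of all bright genes lay above 0 and 44.6% below, and 71.0% of those from 2000 up lay below. Of 13 bright BMP, activin and ID genes, 2 passed 1.5-fold lower (FST and CHRDL1) and 0 higher, and ID2 read 712.8 and 869.6 (median -0.06). Of 12 bright TGF-beta genes 0 passed 1.5-fold and 8 lay below 0, with a median of -0.21; TGFB2, a TGF-beta ligand, read 545.2 and 393.7, and SKIL, a feedback inhibitor of the pathway, 147.2 and 193.5. Of 9 bright Wnt genes 8 lay below 0 and 0 passed 1.5-fold, with DKK1, a Wnt antagonist, at 571.5 and 408.1 and WNT5A at 1170.1 and 978.1. Of 3 bright FGF genes FGF2 alone passed 1.5-fold, and FGFR1 read 443.0 and 426.4. The 11 bright genes of ERK feedback had 8 above 0 and a median of 0.11, with SPRY2, an inhibitor of growth factor signalling, at 137.9 and 168.8. Of 9 bright genes of the IGF axis 1 passed 1.5-fold, IGFBP1, while IGFBP3, the main IGF carrier, read 10257.6 and 7752.5 and IRS2, an insulin receptor substrate, 546.4 and 403.9. Of 7 bright genes tied to DACH1 in earlier work 1 passed 1.5-fold, FGF2, and EGFR read 1280.8 and 1178.2. This list was chosen with earlier results of these data known, so that FGF2 is no independent check of that work.

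Chemokine genes were low on both arrays. Of 16 CXC and CC chemokine genes 0 reached 100, and their brighter signals had a median of 5.4, under the floor, and a highest of 95.2. Their signals summed to 213.8 and 137.2, beside sums of 18331.3 (silenced) and 6285.1 (induced) in the pair labelled serum. Because most of these genes lay under the floor here, the sums of this pair are not read as a difference. Of 10 bright interleukin and receptor genes, IL1RN was 1.5-fold higher and IL7R 1.5-fold lower, IL1R1, the signalling receptor of interleukin 1, read 757.4 and 970.1, and CSF1, a macrophage growth factor, 140.9 and 102.2. NF-kB subunits and feedback genes had 0 of 9 past 1.5-fold, 6 above 0 and a median of 0.13. The list counts of this paragraph stand beside 1.00% of all bright genes at least 1.5-fold lower, 0.891% higher and 55.3% above 0. In lists this short, a count of 0 past 1.5-fold does not stand apart from those shares. NFKBIA, the inhibitor that NF-kB itself induces, read 276.6 and 389.4, and SOD2, manganese superoxide dismutase, 130.4 and 179.5, while IRF1 read 130.3 and 93.9. Of 5 bright interferon-stimulated genes 0 passed 1.5-fold, with IFIT3 at 109.9 and 151.7. The immunoproteasome subunits PSMB8 (131.8 and 190.8) and PSMB9 (85.4 and 120.9) read higher and the peptide transporter TAP1 (108.1 and 78.5) lower, each short of 1.5-fold.

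Genes of the cell cycle parted by phase in this pair, by small differences. In the pair labelled serum both lists lay mostly above 0, with medians of 0.41 for S phase and 0.35 for G2 and mitosis. Of all bright genes here 55.3% lay above 0 and 44.6% below, with a robust SD of 0.18. In the pair labelled serum-free, of 27 bright genes of DNA replication and S phase 23 lay above 0, with a median of 0.18. Of 26 bright genes of G2 and mitosis 24 lay below 0 and 1 above, with a median of -0.18. Of either list 0 passed 1.5-fold, against 1.89% of all bright genes. CDT1, which licenses replication origins, read 139.8 and 191.5, RFC2 of the clamp loader 210.3 and 276.0, and GINS2 of the replicative helicase 289.1 and 378.0, while RRM2, a ribonucleotide reductase subunit, went the other way at 2826.2 and 2409.0. KIF20A, a kinesin of cytokinesis, read 636.3 and 440.9, CDC20, the activator of the anaphase-promoting complex, 540.9 and 397.9, CCNB1, cyclin B1, 1465.4 and 1110.0, and PLK1, a mitotic kinase, 310.1 and 237.2. CDK1, the kinase that cyclin B1 activates, read 1135.6 and 1196.1. Both medians of this pair kept their sign in all 13 alternative settings. These settings reuse the same 2 arrays, and those without a floor or with a floor of 50 left both medians unchanged. Shares of cells in each phase were not measured. The 11 bright tubulins all lay below 0 with a median of -0.16, but 5 lay above 0 and 6 below after quantile normalization of the pair, with a median of -0.02, so that their direction depended on the scaling.

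Few members of the stress and metabolic lists passed 1.5-fold, though several lists lay mostly on the same side of 0. Of all bright genes 44.6% lay below 0 and 55.3% above, and 1.89% passed 1.5-fold in either direction. Of 18 bright ER chaperone and unfolded protein genes 17 lay below 0 and 0 passed 1.5-fold, with a median of -0.16; CALR, calreticulin, read 658.8 and 506.5 and HSPA5, the chaperone BiP, 6837.2 and 6308.4. Of 23 bright genes of the ATF4 and amino acid response 19 lay below 0 and 1 passed 1.5-fold, SLC7A11, with a median of -0.19. ASNS, asparagine synthetase, read 469.2 and 325.1 and CHAC1, a glutathione-degrading enzyme, 106.6 and 74.3, whereas SLC7A5, a leucine transporter, read 215.7 and 302.1. After quantile normalization of the pair the medians were -0.15 for either list. Of 26 bright genes of hypoxia and glycolysis 20 lay below 0 (median -0.13, or -0.07 after quantile normalization), with GAPDH at 9602.6 and 8109.3 and NDRG1, a hypoxia-induced gene, at 2754.3 and 3312.7. Cholesterol synthesis had 0 of 16 past 1.5-fold and a median of -0.10, with HMGCS1 of its early steps at 243.6 and 213.3. Of 19 bright genes of mitochondrial ribosomes, import and proteases 15 lay above 0, with a median of 0.09, and the 27 nuclear genes of the respiratory chain and ATP synthase had a median of 0.05. The proteasome (median -0.03) and splicing factors (-0.02) lay near 0. Ribosomal proteins had a median of -0.01, which turned to 0.10 after quantile normalization, and 22 housekeeping genes had -0.12, which became 0.00.

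**Figure D3:**
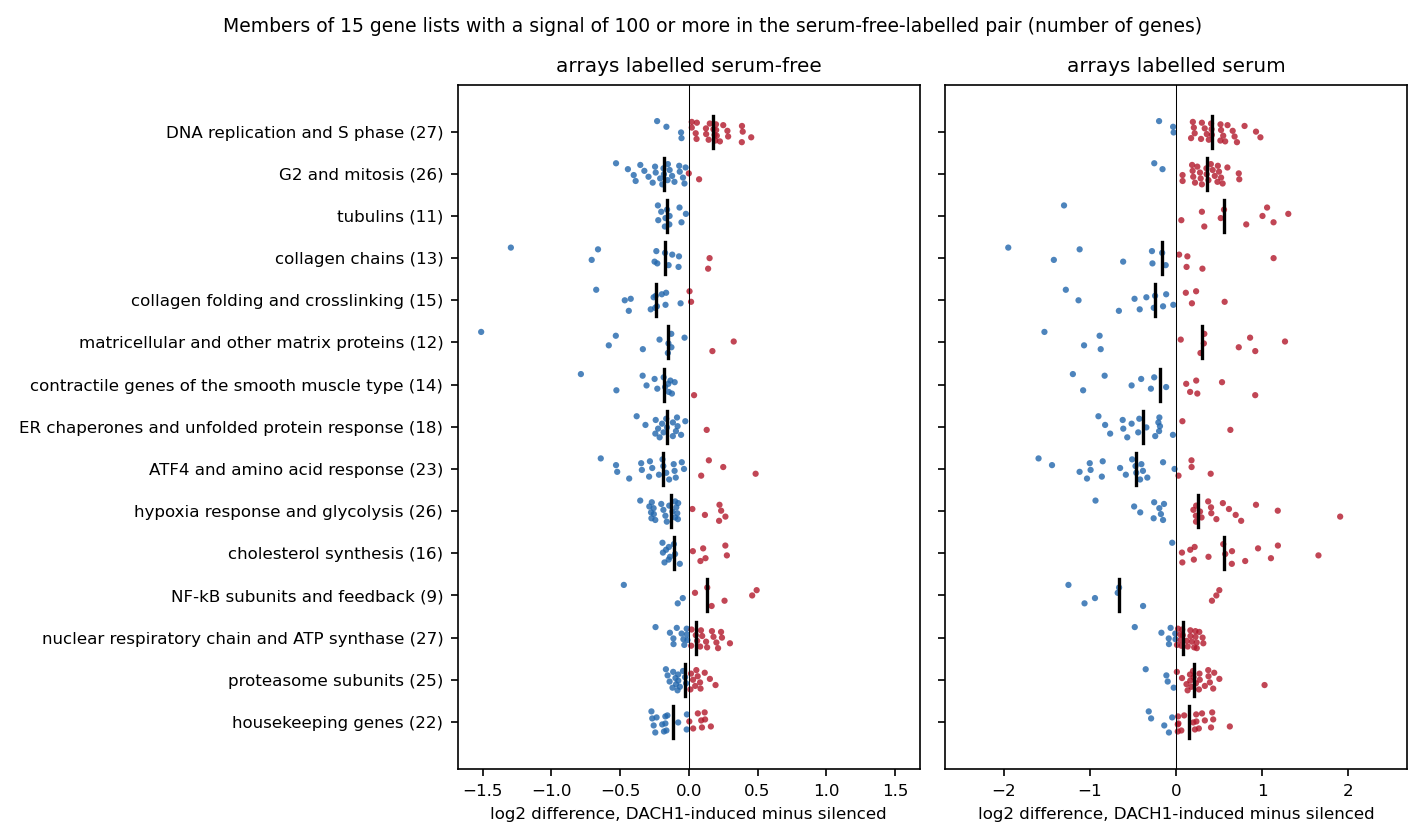
Log2 differences, induced minus silenced, of the bright members of 15 gene lists, in the pair labelled serum-free at the left and for the same genes in the pair labelled serum at the right, on axes of different length. Each point is a gene, blue below 0 and red at or above it, the black bar is the median and the number of genes stands in parentheses; G2 and mitosis has its median at -0.18 at the left and 0.35 at the right.

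Markers of lineage were mostly lower where they were bright, beside 44.6% of all bright genes and 71.0% of those from 2000 up. GJA1, VIM and TUBB3 are in that range, so that their small differences need to be read beside its shift. All 4 bright astrocyte markers lay below 0, with a median of -0.31, and SLC1A3, a glial glutamate transporter, passed 1.5-fold at 158.0 and 104.1. GJA1, connexin 43, read 4692.0 and 3771.0 and CLU, clusterin, 814.2 and 655.0. Vimentin, VIM, read 9277.8 and 7626.4. Of 2 bright neuronal markers, SNAP25 read 370.3 and 352.5 and TUBB3 5513.5 and 4901.5. Of 10 bright factors of mesenchymal transition and cadherins 0 passed 1.5-fold. Among them CDH2, N-cadherin, read 750.3 and 511.6, PRRX1, a mesenchymal homeobox factor, 175.1 and 125.3, TWIST1 170.1 and 133.0, and ZEB2 159.1 and 194.7. Of 7 bright glioma stem and progenitor factors 0 passed 1.5-fold. Over all bright genes 1.89% passed 1.5-fold in either direction.

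The same genes were then set beside the pair labelled serum, which shares no array with this one. Over the 6562 genes bright in both pairs the log2 differences correlated weakly, with Pearson's r = 0.14 (0.11 without DACH1) and a Spearman correlation of 0.04, across genes that are not independent. The lower genes overlapped more than the higher ones. Of 46 genes at least 1.5-fold lower here, 18 (39.1%) were also at least 1.5-fold lower in the pair labelled serum, against 6.29% of all 6562 genes, and 1, ARMC9, was higher. These 18 made up 4.36% of the 413 genes lower there. Of 53 genes at least 1.5-fold higher here, 10 (18.9%) were also higher there, against 6.28% of all, and 9 (17.0%) were lower. The 10 made up 2.43% of the 412 genes higher there. They include DACH1, whose induction in both pairs was the design. Without DACH1, the genes higher in both pairs were no more numerous than those higher here and lower there. Overlaps of this kind were described and not tested.

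Apart from SLC4A7, each of the 18 lower genes had the larger fold in the pair labelled serum. FGF2 went from 1476.0 to 209.3 there (7.05-fold, 1.73-fold here), SEMA3C from 586.3 to 57.9 (10.1-fold, 1.57-fold here), SLC1A3 from 135.0 to 12.8 (10.5-fold, 1.52-fold here) and KYNU from 4311.9 to 928.1 (4.65-fold, 1.56-fold here). FST was 3.89-fold lower there, AHR 3.91-fold, COL5A2 2.67-fold, VEGFC 2.42-fold and ACTA2 2.29-fold, while SLC4A7, a bicarbonate transporter, was lower by a like amount in both, 1.76-fold here and 1.70-fold there. THBS1 was not among them, since it read 15.2 and 18.5 in the pair labelled serum. COL8A1, at 71.7 and 18.6 there, lay under 100 but was lower in both. DKK1 and ITGB8, at 374.3 and 25.8 and at 554.3 and 24.9 there, were 14.5-fold and 22.3-fold lower, against 1.4-fold and 1.47-fold here.

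Genes higher in both pairs besides DACH1 were IL1RN (1.87-fold there), IL36RN (2.15-fold), CD24 (2.56-fold), ITGB3 (1.76-fold), STRIP2 (2.04-fold), VSTM4 (3.35-fold), TMEM273 (4.03-fold), DCLK1 (4.37-fold) and PAX8-AS1 (5.89-fold). The 9 genes with opposite direction were PTGES, BDNF, TRPS1, DMXL1, PALMD, BDKRB1, GAPLINC, ZNF362 and BDNF-AS, the last read by a probe set of its own. For TRPS1 and DMXL1 the opposite direction rests on single probe sets. BDNF was 1.73-fold higher here and 3.74-fold lower there (704.3 and 188.4), with its other probe set also opposite (427.8 and 112.6 there). PTGES was 1.83-fold higher here and 3.29-fold lower there (1849.6 and 562.8). PALMD, of the paralemmin family, read 94.4 and 144.6 here and 139.3 and 21.9 there. In each of the 9 genes the silenced level was higher in the medium labelled serum than in the one labelled serum-free. Picking genes by these opposite directions favours such a difference, so that it is no separate result. Among the lists, G2 and mitosis had 24 of 26 members above 0 in the pair labelled serum (median 0.35) and 24 below 0 here. Cholesterol synthesis had a median of 0.56 there and -0.10 here, NF-kB genes -0.66 and 0.13, and the ATF4 list -0.47 and -0.19. The ER chaperone list also had the same direction in both pairs, with -0.39 there and -0.16 here.

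**Figure D4:**
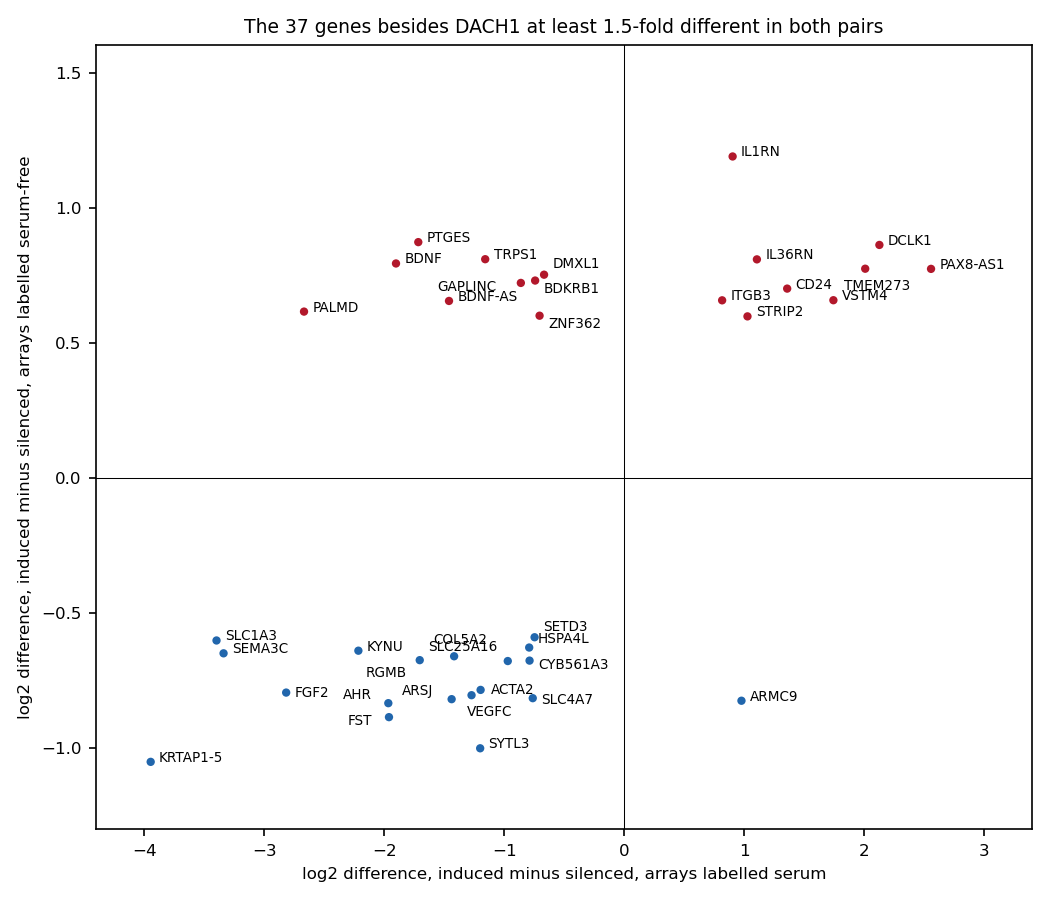
Log2 differences, induced minus silenced, in the pair labelled serum-free (vertical axis) against the pair labelled serum (horizontal axis) for the 37 genes besides DACH1 that were at least 1.5-fold different in both. Blue points are lower and red points higher on the vertical axis; 18 genes lie in the lower left, 9 in the upper right, 9 in the upper left and 1, ARMC9, in the lower right.

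Under a signal of 100, differences were larger and less sure. Of 5365 compared genes in this range 462 (8.61%) passed 2-fold, 127 higher (2.37%) and 335 lower (6.24%). RSPO3, which strengthens Wnt signals from outside the cell, read 55.7 and 12.7 (4.39-fold lower), and in the pair labelled serum it read 945.0 and 35.0. MAP2, a neuronal microtubule protein, read 85.1 and 25.9 (3.29-fold lower), and EGF, whose protein is a supplement of this medium, 64.6 and 18.9 (3.42-fold). On the higher side SMPD2, a sphingomyelinase, read 13.7 and 50.2 (3.66-fold) and DECR2, a peroxisomal reductase, 23.2 and 64.3 (2.77-fold). Genes at the floor on 1 array gave bounds. TMEM184A, at 59.2 in silenced cells, was at least 5.43-fold lower, the macrophage transporter gene SLC11A1, at 57.0, at least 5.23-fold lower, and NEU4, a sialidase, at 40.6 in induced cells, at least 3.72-fold higher. No detection calls were used. The robust SD of all genes between 17.2 and 50 was 0.66 and that between 50 and 100 was 0.32.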

How the data were processed

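Total RNA of 4 U87TR-Da cultures was labelled from 6 µg and hybridised to 4 oligonucleotide arrays, per the labels. For each probe set the authors deposited a linear signal intensity. Per the submitters' processing notes it came from MAS5, whose version and target intensity, like the chip definition, were not given in the sources used here. MAS5 scales each array by 1 factor, and means trimmed by 2% at each end came to 99.63 to 99.65. It subtracts an estimate from mismatch probes, which makes low signals noisy on the log scale.

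Of 54613 probe sets, 41091 had 1 gene in the platform annotation (99.9% with updated symbols), 1801 had several, and the 11721 that it does not list have no name here. A gene was read by the probe set whose log2 signal, averaged over the 4 arrays, was highest. Signals under 10.9 were floored, and 0 columns were left unused. No count model and no test was run, since each condition has 1 array. Genes were counted at 2-fold and 1.5-fold, with a brighter signal of 100 or more.

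The text draws on DACH1, the 20 highest and 20 lowest bright genes, up to 4 members per list with the largest differences and its brightest, genes whose probe sets all differ in the same way, the 10 brightest genes, the extremes and bounds under 100, and genes at the thresholds. Genes from the overlap of the pairs, the low markers and list members beyond these were chosen after their values were seen. Members and the 58 lists (1024 different genes, 83 without a single-gene probe set) were chosen with earlier results of these data known. The 13 alternatives changed normalization, floor, filter or probe set. The scripts were tested on simulated data. Promoters came from RefSeq (GRCh38.p14). Scripts ran under Python 3.11.15 with numpy 2.4.6, pandas 2.3.3 and, for plots, matplotlib 3.10.9.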

Additional observations from a re-analysis of the deposited data

Results flagged for a closer look

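PTGES, BDNF, TRPS1 and DMXL1 lay past 1.5-fold in opposite directions in the 2 pairs. PTGES was at 0.87 on the log2 scale here and -1.72 in the pair labelled serum, and BDNF at 0.79 and -1.90. TRPS1 was at 0.81 and -1.16 and DMXL1 at 0.75 and -0.67. The other probe sets of TRPS1 were at -0.14, -0.13 and 0.05 here, and all of its probe sets read lower in the pair labelled serum. The dimmer probe set of DMXL1 was at 0.67 here and 0.09 there, so that the opposite directions of these genes rest on single probe sets. The median of the G2 and mitosis list was -0.18 here and 0.35 there, and that of the tubulins -0.16 and 0.56. With 1 array per condition, the difference was not tested for any of them.

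Probe sets with several annotated genes or none took no part in the comparisons by gene. Of 1517 such probe sets at 100 or more, 4 were at least 2-fold different. The probe set furthest from 0, annotated with 6 genes, read 336.9 and 1146.8 (log2 1.77), and in the pair labelled serum 1124.6 and 316.9. A probe set that the annotation does not list read 49.0 and 106.6 (log2 1.12), and another, with 2 genes, 111.6 and 235.4 (log2 1.08). The last, with 3 genes, read 118.2 and 57.4 (log2 -1.04).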

How the results depend on the processing

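The DACH1 log2 difference was 4.75 and stayed between 4.13 (floor of 50) and 4.87 under all alternatives that kept its brightest probe set, with 4.35 after adding the floor as a pseudocount. It was 1.53 as the mean over its 3 probe sets and -0.15 without probe sets ending in _x_at or _s_at, which leaves a dim probe set. Counts moved with the filter. Genes at least 2-fold higher and lower numbered 13 and 41 with a signal of 50 or more, 1 and 2 with 200 or more, 0 and 2 with both arrays at 100 or more, and 129 and 344 with no filter. At 1.5-fold the numbers were 159 and 195, 26 and 34, 32 and 43, and 589 and 1279. Without _x_at and _s_at probe sets 0 genes were 2-fold higher. Of 53 named genes 52 kept their sign in every alternative. The filters leave a gene's value unchanged, and all settings reuse the same 2 arrays. CDK14 turned to -0.044 as the mean over its probe sets. By that mean KIF5A fell to 0.07 and TRPS1 to 0.15, and ZNF335 came to -0.06 and SYTL3 to -0.05, so that their folds rest on single probe sets. Of 46 list medians 29 kept their sign throughout, among them those of S phase, G2 and mitosis, collagen and contractile genes. The labels number no replicates, and each group holds 1 array, so that no replicate was left out. An additive fit over both pairs, with the medium as a block, was not run, since it would average over the media.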
